A study of Mus musculus with 4 samples.

Results

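Tetraspanins are membrane proteins, and 10 of them that blood cells use were followed here in *Bcl11a*-/- and WT hematopoietic progenitors: *Cd63*, *Cd9*, *Cd37*, *Cd53*, *Cd81*, *Cd82*, *Cd151*, *Tspan13*, *Tspan32* and *Tspan33*. The set was built around *Cd63*, which was itself chosen by its *Bcl11a*-/- minus WT difference in MPPs on these same arrays. The others were added as family members known from blood cells, with earlier results of these data known. Each of the 10 genes had 1 probe set, so they make up 10 of the 28848 probe sets counted and 10 of the 19938 genes with 1 symbol. For 10 of 10 genes the symbol was the same in RefSeq, matched through the Entrez identifier, and 0 of the probe sets carried a further symbol.

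Transcripts were measured by 4 one-color arrays, 1 for each of *Bcl11a*-/- MPPs, WT MPPs, *Bcl11a*-/- GMPs and WT GMPs. MPPs are multipotent progenitors, taken here as the CD150-negative cells of the Lin- Sca-1+ c-Kit+ (LSK) gate, and GMPs are granulocyte-macrophage progenitors. *Bcl11a*-/- cells carry a germline deletion of the first exon of *Bcl11a*, a zinc finger transcription factor, and WT cells carry Bcl11a(+/+). Because the deletion kills mice before or around birth, fetal liver cells of either genotype had been given to B6.SJL hosts after 1200 rad of irradiation, and donor-derived cells were sorted from the BM 4 weeks later by the labels, where the methods have 4 or 6 weeks. All 4 samples therefore come from regenerating marrow of irradiated hosts, and the labels name B6.SJL both as the host strain and as the background of each sample. RNA came from pools of cells of like donor genotype, and how many mice went into each pool is not stated. The paper isolated GMPs from the same BM as the MPPs, so the MPP and GMP comparisons between genotypes are not independent of each other.

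With 1 array per condition no difference below has a replicate check, and none carries a p-value. Values are log2 signals as deposited, and a difference of 1 on this scale is 2-fold. A gene was counted as higher or lower where it differed by more than 2-fold. In pooled cells, fewer cells that make a transcript and less of it per cell cannot be told apart. *Bcl11a* itself read 8.64 in *Bcl11a*-/- MPPs and 9.89 in WT MPPs, 2.39-fold lower, and 7.77 in *Bcl11a*-/- GMPs and 8.60 in WT GMPs, 1.78-fold lower. Only the first exon is deleted, so this is a weak check of the labels. Of the GMP markers (*Mpo*, *Elane*, *Prtn3* and others), 6 of 8 were lower in WT MPPs than in WT GMPs, and of the MPP and stem cell markers (*Flt3*, *Meis1* and others) 2 of 7 were higher.

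A tetraspanin crosses the membrane repeatedly and has a large extracellular loop through which it binds other proteins. Tetraspanins assemble with integrins, immunoglobulin superfamily proteins, proteases and each other into membrane microdomains, and so affect how their partners are trafficked and placed. In blood cells some, such as *Cd37*, *Cd53* and *Tspan32*, are largely restricted to the hematopoietic system, whereas *Cd9*, *Cd81* and *Cd151* are found in many tissues. *Cd63* is unlike these in residing mainly in late endosomes, lysosomes and the membranes of secretory granules.

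To give the sequence context of these genes, the 250 bases upstream of the annotated start are shown for the genes whose differences are described most fully: *Cd63* and *Tspan33*, the members above 2-fold in a genotype comparison, *Tspan32*, which had opposite signs in the 2 populations, and *Cd53*. Sequences are from RefSeq on GRCm38.p6, written 5' to 3' on the strand of the gene. They lie at chr10:128909095-128909344 on the plus strand for *Cd63*, chr6:29693964-29694213 on the plus strand for *Tspan33*, chr7:143004796-143005045 on the plus strand for *Tspan32* and chr3:106790150-106790399 on the minus strand for *Cd53*. Capitals mark matches, on either strand, to the motifs described next.
Cd63: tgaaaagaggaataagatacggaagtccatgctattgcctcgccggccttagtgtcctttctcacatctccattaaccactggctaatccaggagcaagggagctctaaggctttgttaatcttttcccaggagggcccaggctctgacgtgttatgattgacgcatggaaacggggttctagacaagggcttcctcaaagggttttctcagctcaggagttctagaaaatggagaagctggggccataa
Tspan33: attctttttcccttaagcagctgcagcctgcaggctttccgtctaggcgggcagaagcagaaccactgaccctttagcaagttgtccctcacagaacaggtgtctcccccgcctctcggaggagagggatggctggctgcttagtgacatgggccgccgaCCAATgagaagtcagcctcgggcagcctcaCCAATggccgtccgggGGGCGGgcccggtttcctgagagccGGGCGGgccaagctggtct
Tspan32: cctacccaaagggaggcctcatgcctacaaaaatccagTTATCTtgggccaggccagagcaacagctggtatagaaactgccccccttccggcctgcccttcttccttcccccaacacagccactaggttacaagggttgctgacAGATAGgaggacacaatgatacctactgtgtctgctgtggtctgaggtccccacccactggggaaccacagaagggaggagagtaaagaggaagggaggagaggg
Cd53: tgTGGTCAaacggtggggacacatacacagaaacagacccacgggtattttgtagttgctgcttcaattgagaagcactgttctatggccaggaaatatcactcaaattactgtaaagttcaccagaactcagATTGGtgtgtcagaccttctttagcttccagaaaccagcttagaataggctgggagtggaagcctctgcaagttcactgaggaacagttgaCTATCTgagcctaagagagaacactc

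Motifs were searched on both strands in 14 windows of the 10 genes, since *Cd82* has 4 annotated starts and *Cd151* has 2, and in all 32851 windows of that length. TGACCA, the hexamer bound by BCL11A in human erythroid cells, was in 1 of the 14 windows, that of *Cd53*, and in 11.4% of all windows. In *Cd53* it lies on the opposite strand and so reads as its reverse complement near the 5' end of the sequence. A GATA motif, here GATA after A or T and before A or G, was in 3 of 14 windows, those of *Cd37*, *Cd53* and *Tspan32*, and in 26.5% of all windows. GGGCGG, a GC box, was in 8 of 14 windows against 32.7% of all, and the *Tspan33* window holds 2 copies beside 2 copies of the CCAAT box. This box was in 4 of 14 windows against 33.8% of all, and CACGTG was in 1, that of *Cd37*, against 6.02% of all. No match overlaps another in the sequences shown. The *Cd63* window has no match, which says only that these letters are not in these 250 bases. Base composition also differed, with 62.4% GC and 13 CpG in the *Tspan33* window and 55.6% GC and 1 CpG in that of *Tspan32*, whereas the median window had 52.4% GC and 6 CpG. These matches are a description of the sequence.

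*Cd63* was the member with the largest difference in MPPs. Its probe set (10367436, chromosome 10) read 11.66 in *Bcl11a*-/- MPPs and 9.71 in WT MPPs, the contrast by which it was chosen, so this value is given as a description. In that comparison 0.0502% of all genes lay at least as far above 0, a share fixed by the choice from which nothing is read. In GMPs, whose arrays the choice did not use, *Cd63* read 11.31 on the *Bcl11a*-/- array and 10.92 on the WT array, 1.31-fold higher. There 6.72% of all genes lay at least as far above 0. These GMPs came from the same BM as the MPPs, so this is not an independent check. The WT MPP array was thus the low one of the 4, and the others lay between 10.92 and 11.66. The *Bcl11a*-/- minus WT difference was 1.57 larger in MPPs than in GMPs, a 2.96-fold change of the fold that was not tested for want of replicates.

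*Tspan33* had the widest range over the arrays, 2.31. It belongs to the TspanC8 subgroup, which escorts the protease ADAM10 out of the endoplasmic reticulum, and in mice it is known from erythroid progenitors. Its signal (probe set 10536908, chromosome 6) was 7.11 in *Bcl11a*-/- MPPs and 6.11 in WT MPPs, a difference of 0.99 or 1.99-fold, just short of the threshold. In GMPs it was 6.46 on the *Bcl11a*-/- array and 4.80 on the WT array, 3.18-fold higher. The WT signal was under the median of that array (5.50), and with a floor of 5 the difference was 1.46 in place of 1.67. Both *Bcl11a*-/- arrays thus read above both WT arrays, which among the members was otherwise so only for *Cd63*. In GMPs 0.0752% of all genes lay at least as far above 0. As the members were chosen with earlier results of these data known, this share is a description.

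**Figure D1:**
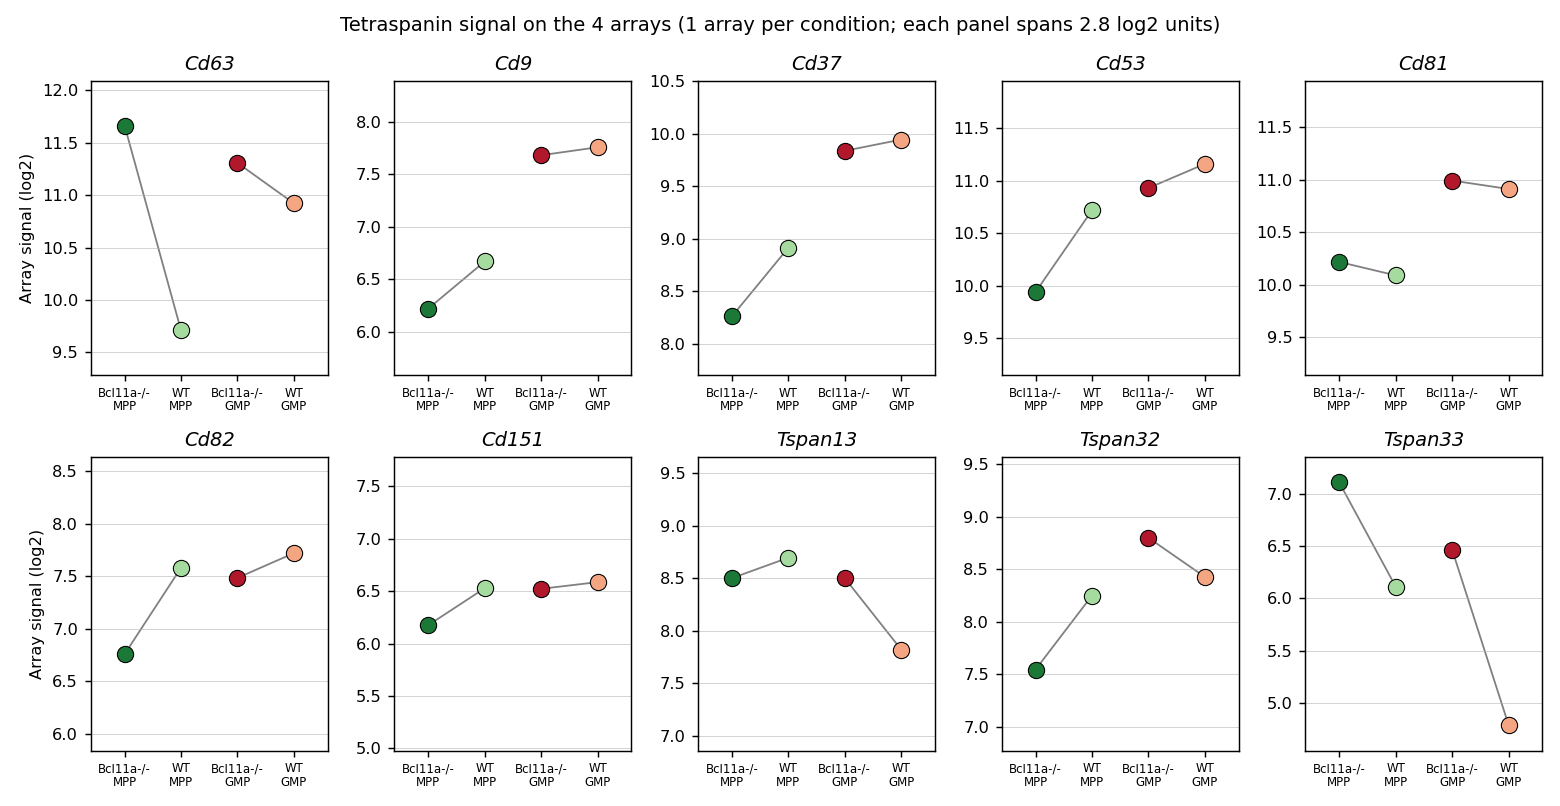
Signal of the 10 tetraspanins (log2, vertical axis) on each of the 4 arrays, 1 point per array, with lines joining *Bcl11a*-/- to WT within MPPs (green) and within GMPs (red). Each panel spans the same number of log2 units but is centred on its own gene; *Cd63* is lowest in WT MPPs (9.71), *Tspan33* is lowest in WT GMPs (4.80), and 6 genes are lowest in *Bcl11a*-/- MPPs.

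The hematopoietic tetraspanins *Cd37*, *Cd53* and *Tspan32*, with *Cd82*, had lower values in *Bcl11a*-/- MPPs. *Cd37*, which in mice is needed for normal antibody responses, read 8.26 in *Bcl11a*-/- MPPs and 8.91 in WT MPPs, and 9.84 in *Bcl11a*-/- GMPs and 9.95 in WT GMPs. *Cd53*, found on most leukocytes, read 9.94 in *Bcl11a*-/- MPPs and 10.72 in WT MPPs, and 10.93 in *Bcl11a*-/- GMPs and 11.16 in WT GMPs. For both genes the *Bcl11a*-/- MPP array was the lowest and the WT GMP array the highest. The MPP difference was -0.65 for *Cd37* and -0.78 for *Cd53*, whereas the GMP difference was -0.11 for *Cd37* and -0.23 for *Cd53*.

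*Cd82*, known as a suppressor of metastasis in human tumors, had the most negative MPP difference of the set. It read 6.76 in *Bcl11a*-/- MPPs and 7.58 in WT MPPs, 1.77-fold lower, and 7.48 in *Bcl11a*-/- GMPs and 7.72 in WT GMPs, 1.18-fold lower. *Tspan32*, which restrains T cell proliferation in mice, read 7.54 in *Bcl11a*-/- MPPs and 8.25 in WT MPPs, 1.63-fold lower. In GMPs the sign was the opposite, with 8.80 on the *Bcl11a*-/- array and 8.43 on the WT array, 1.30-fold higher. The 2 differences of *Tspan32* lay 1.08 apart.

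Of the members found in many tissues, *Cd81* had values above 0 in both populations and *Cd9* and *Cd151* had values below it. *Cd81*, in humans a receptor used by hepatitis C virus, read 10.22 in *Bcl11a*-/- MPPs and 10.09 in WT MPPs, and 10.99 in *Bcl11a*-/- GMPs and 10.91 in WT GMPs. These differences were 0.13 in MPPs and 0.08 in GMPs. Of all genes, 39.6% lay at least as far above 0 in MPPs and 38.1% in GMPs. Quantile normalizing the MPP arrays anew gave 0.46 for *Cd81* in MPPs. *Cd9*, required on the mouse egg for fusion with sperm and also abundant on platelets, read 6.22 in *Bcl11a*-/- MPPs and 6.67 in WT MPPs, a difference of -0.45. In GMPs it was 7.68 on the *Bcl11a*-/- array and 7.76 on the WT array. *Cd151*, a partner of laminin-binding integrins, spanned only 0.41 over the 4 arrays, the narrowest range of the set. It read 6.17 in *Bcl11a*-/- MPPs, 6.53 in WT MPPs, 6.52 in *Bcl11a*-/- GMPs and 6.59 in WT GMPs, so that only the *Bcl11a*-/- MPP array stood below the others.

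*Tspan13* was the one other member with opposite signs in the 2 populations. It read 8.50 in *Bcl11a*-/- MPPs and 8.69 in WT MPPs, a difference of -0.19, and 8.50 in *Bcl11a*-/- GMPs and 7.82 in WT GMPs, a difference of 0.68. The low array was thus that of WT GMPs, and 1.22% of all genes lay at least as far above 0 in GMPs.

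Over the set, 1 of 10 members (*Cd63*) was above 2-fold in MPPs and 0 were below it, against 0.908% of all genes above and 2.02% below. The first count is fixed by how *Cd63* was chosen, and nothing is read from it. In GMPs 1 of 10 (*Tspan33*) was above 2-fold and 0 were below it, against 0.361% of all genes above and 0.281% below. All members were chosen with earlier results of these data known, so the counts given here are descriptions. At a lower threshold of 1.5-fold, 4 members (*Cd37*, *Cd53*, *Cd82* and *Tspan32*) were lower in *Bcl11a*-/- MPPs, against 6.86% of all genes. This count was 2 (*Cd82* and *Tspan32*) when the arrays were quantile normalized anew. Counting any size of difference, 7 of 10 members were lower in *Bcl11a*-/- MPPs and 5 of 10 in *Bcl11a*-/- GMPs. Of the 10152 genes that reached a log2 signal of 6 on some array, as all 10 members did, 54.3% were lower in MPPs and 53.4% in GMPs. The *Bcl11a*-/- MPP array was the lowest of the 4 for 6 members (*Cd9*, *Cd37*, *Cd53*, *Cd82*, *Cd151* and *Tspan32*) and for 38.2% of the 10152 genes. The median difference of the members was -0.40 in MPPs and 0.01 in GMPs, beside 0.05 in MPPs and 0.01 in GMPs for all genes. For the 10152 genes it was -0.04 in MPPs and -0.02 in GMPs. Of these genes, 122 were above 2-fold and 375 below it in MPPs, and 51 were above and 39 below in GMPs. In MPPs 9.75% of them lay at least as far below 0 as *Cd37* (-0.65).

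**Figure D2:**
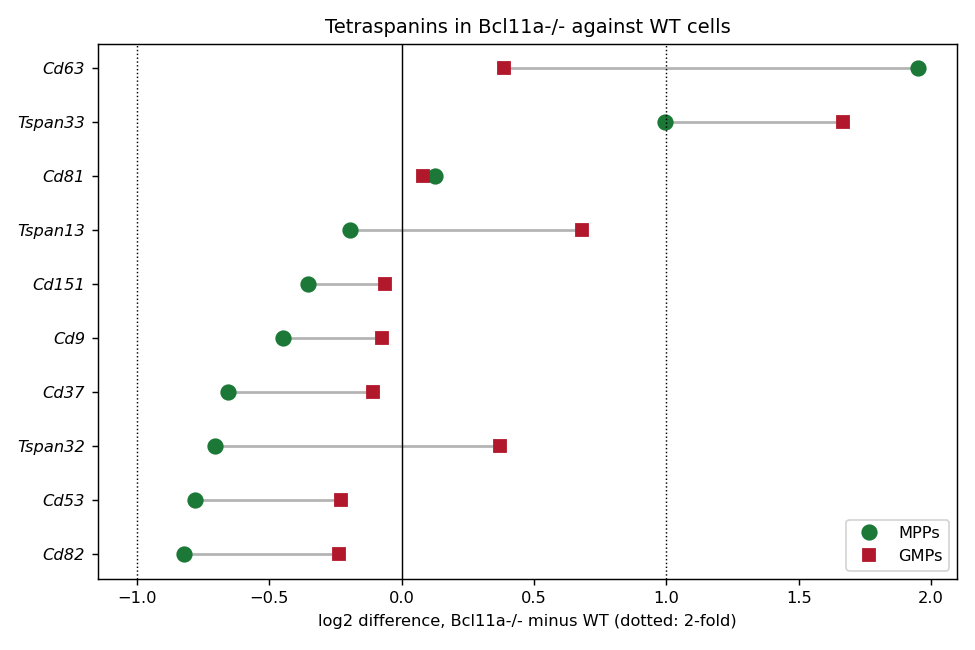
Difference of each tetraspanin between genotypes (log2, *Bcl11a*-/- minus WT, horizontal axis) in MPPs (green circles) and GMPs (red squares), with dotted lines at 2-fold. *Cd63* in MPPs (1.95) and *Tspan33* in GMPs (1.67) lie beyond the lines, *Tspan33* in MPPs (0.99) lies at the line, and *Tspan13* and *Tspan32* lie on opposite sides of 0 in the 2 populations.

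The members, like most of the 10152 genes, differed more between genotypes in MPPs than in GMPs. Without regard to sign, the median difference was 0.68 in MPPs and 0.23 in GMPs, and 8 of 10 members differed more in MPPs, *Tspan13* and *Tspan33* being the exceptions. *Cd63*, chosen by its MPP difference, is among the 8 and enters the median of 0.68. The 10152 genes had medians of 0.27 in MPPs and 0.14 in GMPs, and 67.4% of them differed more in MPPs. The difference between the MPP and GMP differences passed 2-fold for 2 members, *Cd63* (1.57) and *Tspan32* (-1.08), against 3.71% of all genes in either direction. The *Cd63* value contains the MPP difference by which it was chosen, and nothing is read from its place in this count.

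**Figure D3:**
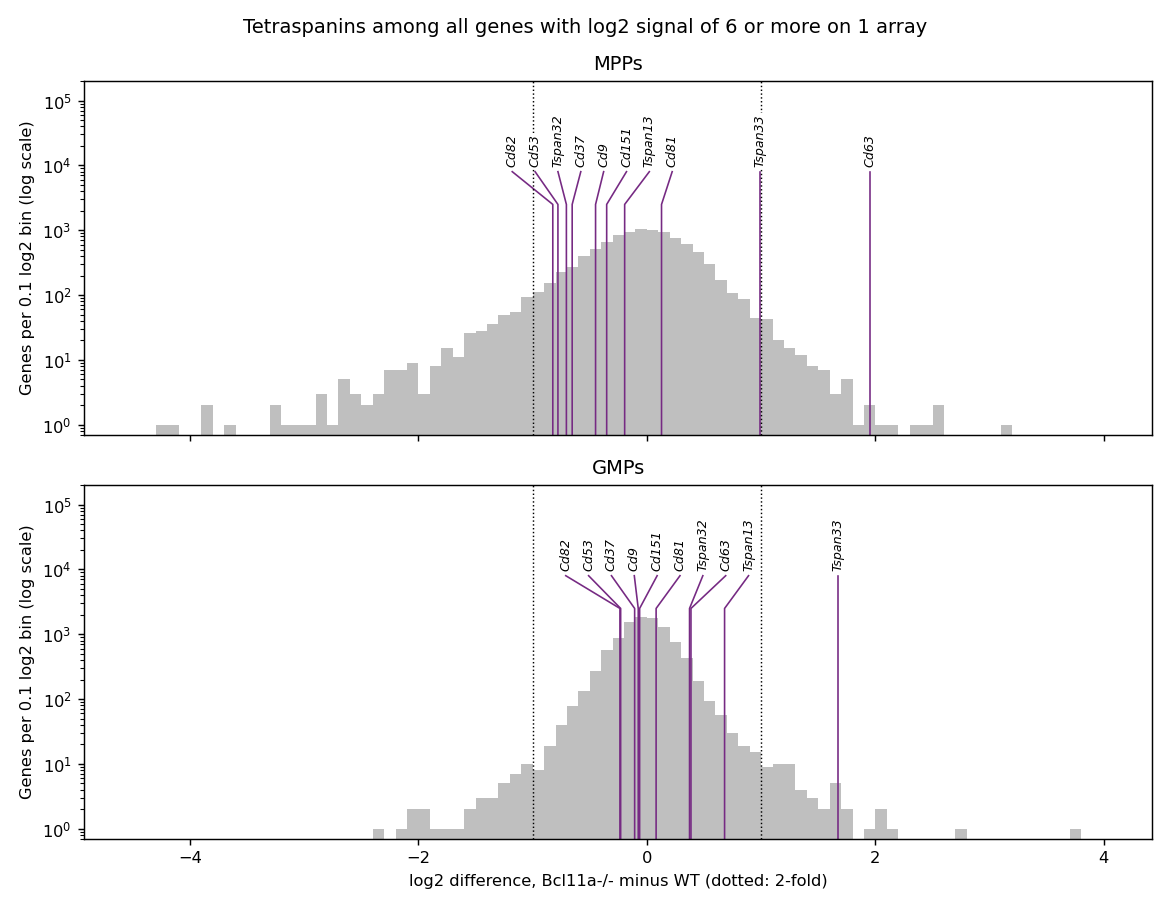
Number of genes per bin of 0.1 log2 (vertical axis, log scale) by their difference (log2, *Bcl11a*-/- minus WT, horizontal axis), for the 10152 genes with a log2 signal of at least 6 on some array, in MPPs (top) and GMPs (bottom). Purple lines mark the members: *Cd63* (1.95) is far to the right in MPPs, *Tspan33* (1.67) is so in GMPs, and *Tspan33* in MPPs (0.99) and *Tspan13* in GMPs (0.68) also lie in the upper tail.

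The arrays also give the members in MPPs against GMPs of the same genotype, which uses the same arrays as the comparisons between genotypes and is not independent of them. For *Cd63* it includes the MPP arrays by which the gene was chosen, so its values are given as a description. In *Bcl11a*-/- cells *Cd63* was 1.28-fold higher in MPPs than in GMPs, whereas in WT cells it was 2.31-fold lower in MPPs than in GMPs. The differences were 0.36 in *Bcl11a*-/- cells and -1.21 in WT cells, and the gap between these is the same quantity as that between its MPP and GMP differences. *Cd9* and *Cd37* were lower in MPPs in both genotypes. *Cd9* differed by -1.46 in *Bcl11a*-/- cells and -1.09 in WT cells, and *Cd37* by -1.58 in *Bcl11a*-/- cells and -1.03 in WT cells. *Cd81* also had lower values in MPPs, 1.71-fold in *Bcl11a*-/- cells and 1.77-fold in WT cells. Its differences became -0.12 in *Bcl11a*-/- cells and -0.52 in WT cells when the arrays were quantile normalized anew.

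For *Cd53*, *Cd82*, *Cd151* and *Tspan32*, MPPs lay further below GMPs in *Bcl11a*-/- cells than in WT cells. *Cd53* differed by -0.99 in *Bcl11a*-/- cells and -0.44 in WT cells, *Cd82* by -0.73 in *Bcl11a*-/- cells and -0.14 in WT cells, and *Cd151* by -0.35 in *Bcl11a*-/- cells and -0.06 in WT cells. *Tspan32* was 2.39-fold lower in *Bcl11a*-/- MPPs than in *Bcl11a*-/- GMPs, beside 1.13-fold in WT cells. Only *Tspan33* and *Tspan13* read higher in WT MPPs than in WT GMPs. *Tspan33* differed by 0.64 in *Bcl11a*-/- cells and 1.32 in WT cells, and *Tspan13* had equal values in the *Bcl11a*-/- populations but differed by 0.88 in WT cells.

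In *Bcl11a*-/- cells 0 of 10 members were more than 2-fold higher in MPPs and 3 (*Cd9*, *Cd37* and *Tspan32*) were more than 2-fold lower, against 2.36% of all genes higher and 5.82% lower. In WT cells 1 of 10 (*Tspan33*) was higher and 3 (*Cd63*, *Cd9* and *Cd37*) were lower, against 1.33% of all genes higher and 2.8% lower. The *Cd63* value uses the WT MPP array that entered its choice, so nothing is read from its place in this count. The members all belong to the 10152 genes that reached a log2 signal of 6 on some array. Of these genes, 360 were more than 2-fold higher and 1136 lower in *Bcl11a*-/- MPPs than in *Bcl11a*-/- GMPs. In WT cells 212 were higher and 540 lower. The median over the members was -0.75 in *Bcl11a*-/- cells and -0.31 in WT cells, beside 0.10 in *Bcl11a*-/- cells and 0.06 in WT cells for all genes. For the 10152 genes it was -0.06 in *Bcl11a*-/- cells and -0.04 in WT cells.

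**Figure D4:**
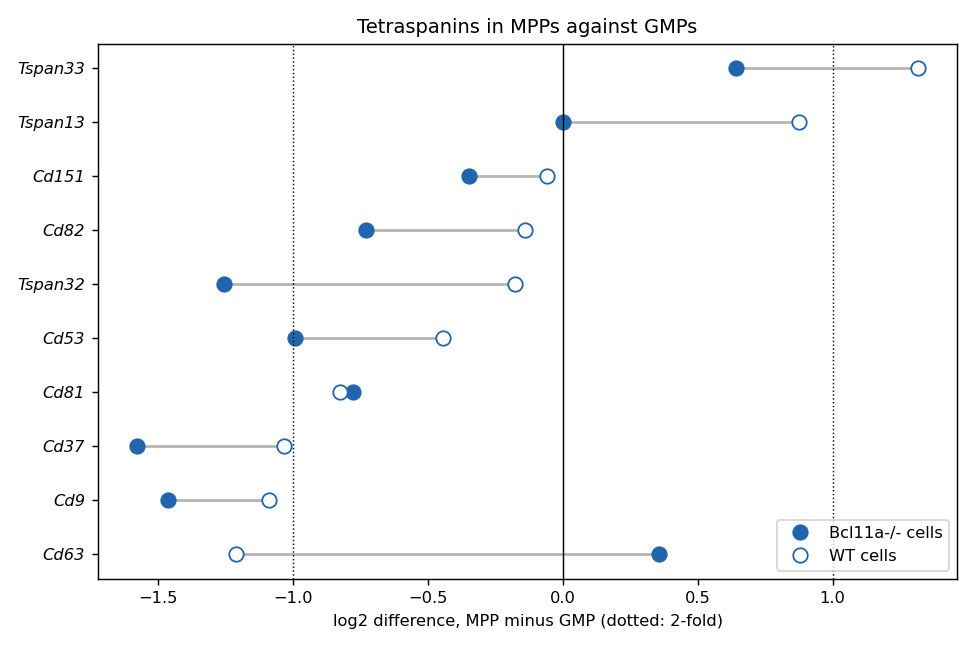
Difference of each tetraspanin between populations (log2, MPP minus GMP, horizontal axis) in *Bcl11a*-/- cells (filled circles) and WT cells (open circles), with dotted lines at 2-fold. *Cd63* lies on opposite sides of 0 in *Bcl11a*-/- cells (0.36) and WT cells (-1.21).

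The genes most like *Cd63* over the 4 arrays, by distance between values centred on each gene's mean among 9635 candidates, were *Cxcl9* (0.51), *Alox5* (0.54), *Rit1* (0.56), *Clec7a* (0.60) and *Olfm4* (0.61). *Cxcl9*, an interferon-induced chemokine, read 9.21 in *Bcl11a*-/- MPPs and 7.81 in WT MPPs, and 8.99 in *Bcl11a*-/- GMPs and 8.35 in WT GMPs. *Alox5*, the 5-lipoxygenase of leukotriene synthesis, read 7.99 in *Bcl11a*-/- MPPs and 6.79 in WT MPPs, and 7.89 in *Bcl11a*-/- GMPs and 7.53 in WT GMPs. In each of the 5 genes the WT MPP array was the lowest, as it was for *Cd63*. They were picked by nearness to *Cd63* over these same arrays, so nothing is read from this. *Olfm4*, a product of neutrophil granules, read 7.54 in *Bcl11a*-/- MPPs and 6.04 in WT MPPs, and 6.88 in *Bcl11a*-/- GMPs and 6.52 in WT GMPs. The small GTPase gene *Rit1* differed by 1.20 in MPPs and 0.14 in GMPs. Likeness over 4 arrays is a description. These distances are large beside those of other members, whose nearest genes lay at 0.02 (*Cd9* and *Txndc12*, or *Cd151* and *Dscc1*) to 0.20. The *Cd63* distances include the MPP difference by which it was chosen, so nothing is read from their size.

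The member at 0.20 was *Tspan33*, whose nearest genes were looked up after its values were seen. They were *Myh10* (0.20), *Gfi1b* (0.32) and *Car2* (0.38). *Gfi1b*, a transcription factor of erythroid and megakaryocyte cells, differed by 0.75 in MPPs and 1.32 in GMPs, and *Car2*, a carbonic anhydrase of red cells and other cells, by 0.96 in MPPs and 1.32 in GMPs. Among the members themselves *Cd9* and *Cd37* were the closest pair, at 0.15, and *Cd53* and *Cd82* lay at 0.29. *Cd63* lay at least 1.36 from every other member, *Cd81* being the nearest. Its distances include the MPP arrays by which it was chosen, so nothing is read from them.

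The genes *Cd37*, *Cd81*, *Cd151* and *Tspan32* are on chromosome 7, and in the order of RefSeq genes only the lncRNA *R74862* lies between *Tspan32* and *Cd81*. These neighbors differed by -0.70 (*Tspan32*) and 0.13 (*Cd81*) in MPPs and by 0.37 (*Tspan32*) and 0.08 (*Cd81*) in GMPs.

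The rest of the tetraspanin family was measured by 20 of 22 further genes, *Tspan7* and *Tspan19* being not analysed here. None of the 20 passed 2-fold between genotypes in either population, and their median difference was 0.01 in MPPs and 0.16 in GMPs. The most negative MPP differences were those of *Tspan2*, at 5.69 in *Bcl11a*-/- MPPs and 6.66 in WT MPPs, and *Tspan31*, at 7.12 in *Bcl11a*-/- MPPs and 7.92 in WT MPPs. The highest MPP differences were those of *Rom1* (0.53) and *Tspan9* (0.47). In GMPs the extremes were *Tspan1* (0.67) and *Tspan8* (0.65) above 0, and *Tspan5* (-0.35) and *Upk1a* (-0.33) below it. The 5 other TspanC8 genes (*Tspan5*, *Tspan10*, *Tspan14*, *Tspan15* and *Tspan17*), a subgroup looked up after the *Tspan33* values were seen, lay between -0.68 and 0.53 in both populations.

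Of the proteins that tetraspanins bind or that sort them, 18 of 20 genes were measured. *Clec7a*, which encodes the beta-glucan receptor Dectin-1 that binds CD37 and CD63, was the 1 partner above 2-fold in MPPs, against 0.908% of all genes. It read 6.33 on the *Bcl11a*-/- array and 4.95 on the WT array, the latter under the median of that array (5.63). *Clec7a* is also among the 5 genes picked as nearest to *Cd63* over these arrays. In GMPs *Clec7a* read 6.0 in *Bcl11a*-/- cells and 6.24 in WT cells, and 0 of the 18 partners passed 2-fold there. The median difference of the partners was 0.07 in MPPs and -0.04 in GMPs. *Adam10*, the protease bound by TSPAN33 and named after its values were seen, read 8.83 in *Bcl11a*-/- MPPs and 8.30 in WT MPPs, and 8.33 in *Bcl11a*-/- GMPs and 8.45 in WT GMPs.

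As *Cd63* resides in late endosomes and lysosomes, 15 of 16 listed genes for other membrane proteins of these compartments were examined beside it. None passed 2-fold in either population, and the median was -0.19 in MPPs and -0.17 in GMPs, with 10 of 15 below 0 in MPPs and 13 of 15 in GMPs. *Lamp2*, an abundant lysosomal membrane glycoprotein, had the highest MPP difference, with 9.55 in *Bcl11a*-/- MPPs and 9.0 in WT MPPs. *Npc1*, the cholesterol exporter of late endosomes, differed by 0.43 in MPPs, *Laptm4a* by -0.64 and *Atp6ap1*, a proton pump accessory protein, by -0.58. In GMPs the extremes were *Cd68* (0.08) and *Mcoln1* (0.02) above 0, and *Tmem9b* (-0.66) and *Laptm4b* (-0.61) below it. The highest difference of the list in MPPs was 0.55, for *Lamp2*. The 1.95 of *Cd63* is the difference by which it was chosen, so nothing is read from its being larger.

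**Figure D5:**
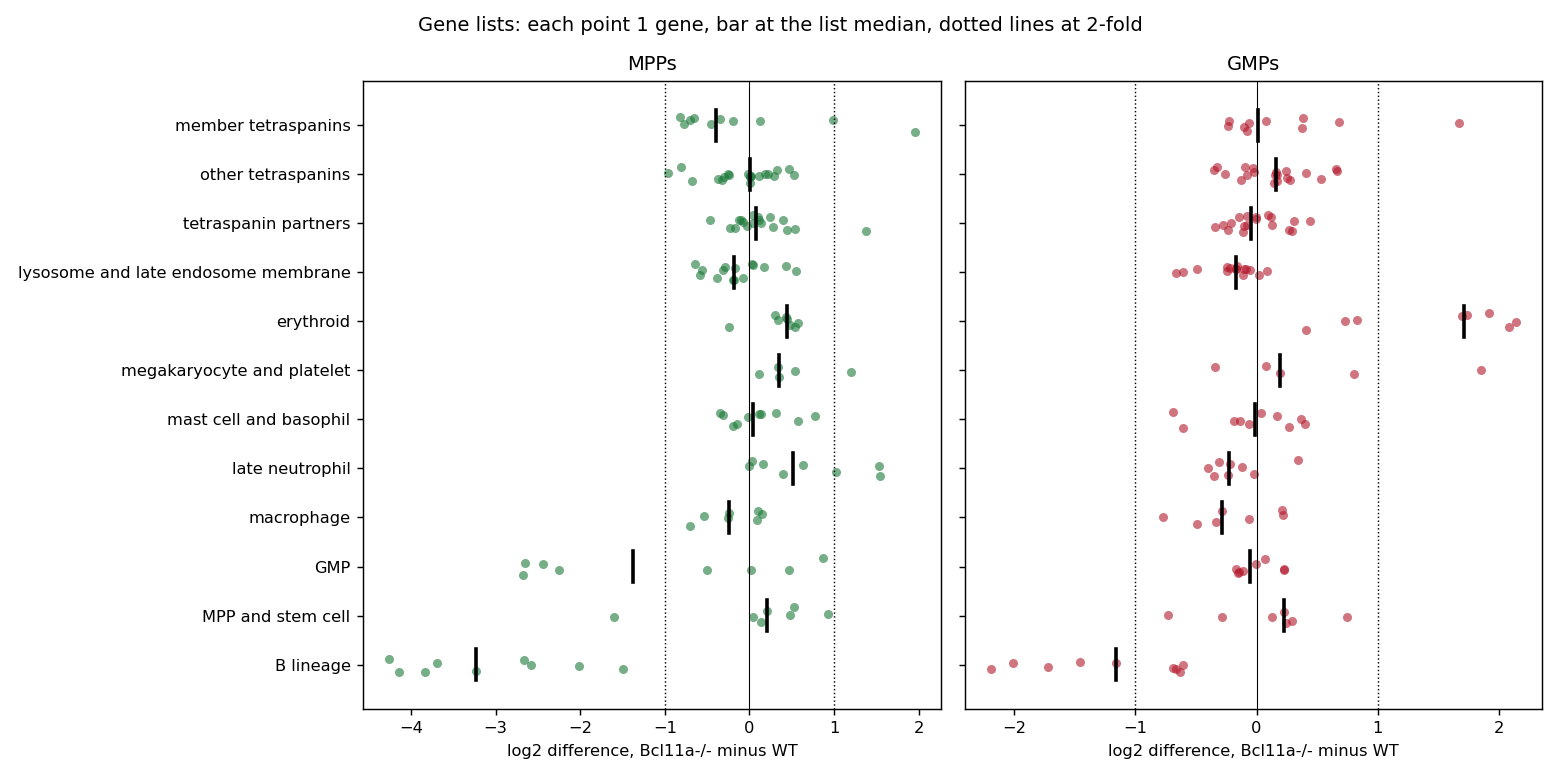
Difference between genotypes (log2, *Bcl11a*-/- minus WT, horizontal axis) of the measured genes of 12 lists in MPPs (left) and GMPs (right), 1 point per gene, with a bar at each list's median, dotted lines at 2-fold and axes of different range. The other tetraspanins lie within 2-fold in both panels, B lineage genes lie below 0 in both (medians -3.23 and -1.16), and erythroid genes lie to the right in GMPs (median 1.72).

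Markers of other blood cells are given beside the members. Where *Tspan33* was higher, in *Bcl11a*-/- GMPs, 5 of 8 erythroid genes (*Klf1*, *Car1*, *Rhag*, *Ermap* and *Aqp1*) were more than 2-fold higher and 8 of 8 lay above 0. The median signal of the erythroid list was 7.54 in *Bcl11a*-/- MPPs and 7.25 in WT MPPs, and 7.83 in *Bcl11a*-/- GMPs and 6.40 in WT GMPs. The low array of the 4 was that of WT GMPs, as it was for *Tspan33* and also for *Tspan13*. The high array was that of *Bcl11a*-/- GMPs for the list but of *Bcl11a*-/- MPPs for *Tspan33*. In MPPs, 0 of the 8 erythroid genes passed 2-fold and the median difference was 0.44. Of 5 megakaryocyte and platelet genes measured, *Pf4* (1.20) passed 2-fold in MPPs, where it read 6.05 on the *Bcl11a*-/- array and 4.85 on the WT array. *Ppbp* passed it in GMPs with signals of 5.43 on the *Bcl11a*-/- array and 3.57 on the WT array, both under the median of their array. Their part in the *Tspan33* result was not tested.

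Where *Cd63* was higher, in *Bcl11a*-/- MPPs, 3 of 8 late neutrophil genes, *Mmp8* (1.54), *Chil3* (1.53) and *Cxcr2* (1.02), were more than 2-fold higher. The median signal of the late neutrophil list was 10.4 in *Bcl11a*-/- MPPs and 9.09 in WT MPPs, and 10.1 in *Bcl11a*-/- GMPs and 10.4 in WT GMPs. The median difference of the list was 0.51 in MPPs, and *Ltf* (-0.01), *Camp* (0.03) and *Retnlg* (0.15) lay near 0. In GMPs, where *Cd63* was 1.31-fold higher, the median of the list was -0.23 and 7 of 8 genes lay below 0. The part of these genes in the *Cd63* result was not tested. CD63 is also a marker of degranulating mast cells and basophils, whose 10 genes had 0 past 2-fold in either population and medians of 0.05 in MPPs and -0.01 in GMPs. In MPPs these genes lay between -0.34 and 0.78, with the highest differences in *Fcer1a* (0.78), the IgE receptor alpha chain, and *Hdc* (0.57), the enzyme of histamine synthesis. The proteases *Mcpt8* (-0.15) and *Cpa3* (0.14) lay near 0. Macrophage genes likewise had 0 of 7 past 2-fold in either population.

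Where *Cd37*, *Cd53*, *Cd82* and *Tspan32* had lower values, in *Bcl11a*-/- MPPs, 9 of 9 B lineage genes were more than 2-fold lower, with a median difference of -3.23. The median signal of the B lineage list was 5.74 in *Bcl11a*-/- MPPs and 7.75 in WT MPPs, and 5.29 in *Bcl11a*-/- GMPs and 6.14 in WT GMPs. In the same comparison 4 of 8 GMP markers, *Elane* (-2.44), *Prtn3* (-2.65), *Ctsg* (-2.25) and *Ms4a3* (-2.68), were more than 2-fold lower. *Mpo* differed by -0.50, and *Cebpe* (0.87), *Fcgr3* (0.47) and *Cebpa* (0.02) lay above 0. The median signal of the GMP list was 8.47 in *Bcl11a*-/- MPPs and 9.83 in WT MPPs, and 12.1 in *Bcl11a*-/- GMPs and 12.2 in WT GMPs. The part of these markers in the lower tetraspanin values was not tested. *Cd63* had a value above 0 in that comparison, and in WT cells it was lower in MPPs than in GMPs. Both values use MPP arrays by which *Cd63* was chosen, so nothing is read from them.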

How the data were processed

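RNA from 4 pooled populations of sorted cells was amplified, labeled with biotin and hybridized by the authors to 1 array each. The authors deposited 1 log2 signal for each probe set and array, made in ArrayStar by RMA, which includes quantile normalization. The software version and the genome build of the array annotation are not given in the sources used here. RMA brings the arrays to a common scale and can hide a change in total mRNA per cell. Medians over the probe sets counted lay between 5.50 and 5.70, with SDs between 2.10 (*Bcl11a*-/- MPPs) and 2.30 (WT GMPs), so the distributions were not equal.

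Of 30177 rows, 1329 that are numbered below the first annotated probe set were set aside as controls, and 21789 of the others had 1 gene symbol. Probe sets of a gene were averaged, differences were taken between arrays, and folds are 2 raised to the difference. The number of arrays, 1 per condition, limits the precision. Members, gene lists and alternatives were chosen with earlier results of these data known. Named are the members, list genes over 2-fold between genotypes (otherwise the 2 largest differences in each direction), and the 5 genes nearest to *Cd63* among genes with a log2 signal of at least 6 on some array, leaving out small RNAs, antigen receptor segments, vomeronasal and olfactory receptors, and Riken or predicted genes. Names given after values were seen are marked so, except the cell type markers, where those over 2-fold or most familiar are given. The alternatives were a floor at 5, a filter at 6, centring on the median or by lowess (span 0.3), renewed quantile normalization, the brightest probe set, probe sets with several symbols, and thresholds of 1.5-fold and 3-fold. Computation used Python 3.11.15, numpy 2.4.6, pandas 2.3.3 and statsmodels 0.14.6, and the steps were tested on simulated data.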

Additional observations from a re-analysis of the deposited data

Results flagged for a closer look

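The genotype difference pointed in opposite directions in the 2 populations for *Tspan13* and *Tspan32*. The MPP difference minus the GMP difference was -0.87 for *Tspan13* and -1.08 for *Tspan32*. With 1 array per condition this contrast between populations was not tested.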

How the results depend on the processing

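No member's difference between genotypes changed sign under any alternative. The *Cd63* difference in MPPs lay between 1.90 and 2.25, and the *Tspan33* difference in GMPs between 1.46 and 1.67. Renewed quantile normalization brought *Tspan33* just past 2-fold in MPPs, which made 2 members past 2-fold there, and it moved *Cd53* from -0.78 to -0.41 and *Cd81* from 0.13 to 0.46 in MPPs. Past 1.5-fold there were 6 members in MPPs, 2 in GMPs and 7 between *Bcl11a*-/- MPPs and GMPs. Past 3-fold there were 0 between MPPs and GMPs in *Bcl11a*-/- cells and 0 in WT cells. Between WT MPPs and GMPs, *Cd63* (-0.91) and *Cd37* (-0.80) came inside 2-fold under renewed quantile normalization and *Tspan13* (1.0) passed it, and lowess centring gave *Cd37* -0.89. Between *Bcl11a*-/- MPPs and GMPs, *Cd53* was -1.10 after centring on the median and -0.35 after renewed quantile normalization, and *Tspan13*, equal on the deposited values, became -0.10 after centring on the median. For *Cd81* the difference between *Bcl11a*-/- MPPs and GMPs moved from -0.78 to -0.12 and that between WT MPPs and GMPs from -0.82 to -0.52 under renewed quantile normalization. The 4 members lower by over 1.5-fold in *Bcl11a*-/- MPPs became 2 under renewed quantile normalization and 3 under lowess centring. The cause of these shifts was not tested. The brightest probe set and shared probe sets changed no member. With 1 array per group no paired test could be run, although MPPs and GMPs of a genotype came from the same BM.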
